A study of Mus musculus with 16 samples.

Results

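The 2 mature dendritic cell types profiled here, classical (cDC) and plasmacytoid (pDC), were compared through H3K27ac, a histone acetylation carried by active promoters and enhancers. The comparison covers every autosomal region of the deposited list that sets cDC against pDC, which is 64782 regions of 66319 in that list and of 273958 in the 4 lists of the series. Both groups are sorted cells of mice on the C57BL/6 background, with 2 H3K27ac libraries for cDC and 2 for pDC. The strain, the cell type and the antibody are the only attributes given, so no genotype, treatment, age or culture condition separates the groups on paper, and neither cell type is divided into its subsets. No label ties a library to its own animal or culture, so every p-value below measures only the spread between these samples, which may be technical. Chromatin was sheared to fragments of 200 to 400 bp before precipitation.

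Classical dendritic cells take up antigen, move to lymph nodes and present peptides on MHC class II to T cells, and their development uses Batf3, Zbtb46 and the helix-loop-helix inhibitor Id2. Plasmacytoid dendritic cells sense viral nucleic acids through endosomal receptors and release type I interferon, and their identity is held by the E-protein Tcf4 (E2-2), which binds E-box sequences and which Id2 opposes by blocking E-proteins. Loss of Tcf4 in mature pDC is known to shift them towards a cDC program.

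A region was counted as separate when both libraries of one cell type had a higher signal than both of the other. The signals are the authors' whole numbers, scaled per library. Total autosomal signal was 40525821 and 57016263 in the first-listed and second-listed cDC library and 64372598 and 69936653 in the pDC libraries. The median log2 ratio of the second cDC library to the first was 0.50, against 0.17 between the pDC libraries, and the second library's total was 1.41 times the first. Because the totals differ between the groups, each result was also computed after giving all 4 libraries the same autosomal total, written below as equal totals. The read depth behind the values is unknown, and fewer cells with a mark and less of it per cell cannot be told apart.

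Of the 64782 regions, 27199 (42.0%) were separate and higher in pDC and 16865 (26.0%) were separate and higher in cDC. With equal totals the balance turned, with 20284 regions (31.3%) for pDC and 31455 (48.6%) for cDC. Equal totals raised both cDC libraries and lowered both pDC libraries. The 20284 regions for pDC and the 16865 cDC regions as deposited therefore could not differ in direction between the scalings. Their agreement is fixed by the scaling and is no test. By group means, pDC was higher in 57.0% of regions as deposited, in 39.6% after equalising totals and in 49.2% if the first cDC library was left out. The overall direction of the difference therefore depends on the scaling and is not given as a result.

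Large differences did not turn. Regions at least 8-fold higher in pDC with separate libraries numbered 6547 as deposited and 4919 with equal totals, against 1691 and 2472 for cDC. At 16-fold or more the counts were 3090 and 2153 for pDC against 698 and 1060 for cDC. In limma's test on log2(signal + 1) with Benjamini-Hochberg adjustment over all 64782 regions, 15392 regions (23.8%) were higher in pDC and 6172 (9.53%) higher in cDC at an adjusted p under 0.05. With equal totals the test called 14054 (21.7%) and 18096 (27.9%), of which 14048 and 6171 had been called in the same direction before. The authors called these regions from the same 4 libraries, so the p-values describe the regions and are not independent evidence that they differ.

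Long regions were mostly higher in pDC under both scalings. The bounds were called from the same 4 libraries and are the same under both scalings. Length is therefore not independent of the signals, and the second scaling is no test of it. Among regions of 5 kb or more, 445 of 505 (88.1%) were separate and higher in pDC and 56 (11.1%) in cDC, and with equal totals the shares were 82.2% and 11.7%. Among regions under 500 bp the pDC share was 29.5% and the cDC share 19.8%, and with equal totals they were 20.8% and 53.0%. Regions of 10 kb or more numbered 33 for pDC and 2 for cDC under either scaling. The longest was 37.3 kb for pDC, at chr8:123289151-123326450 in build mm9, and 18.3 kb for cDC, in the MHC class II cluster at chr17:34418251-34436550. No chromosome stood far from the others, since the pDC share of separate regions ran from 57.8% on chromosome 19 to 64.6% on chromosome 9.

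**Figure D1:**
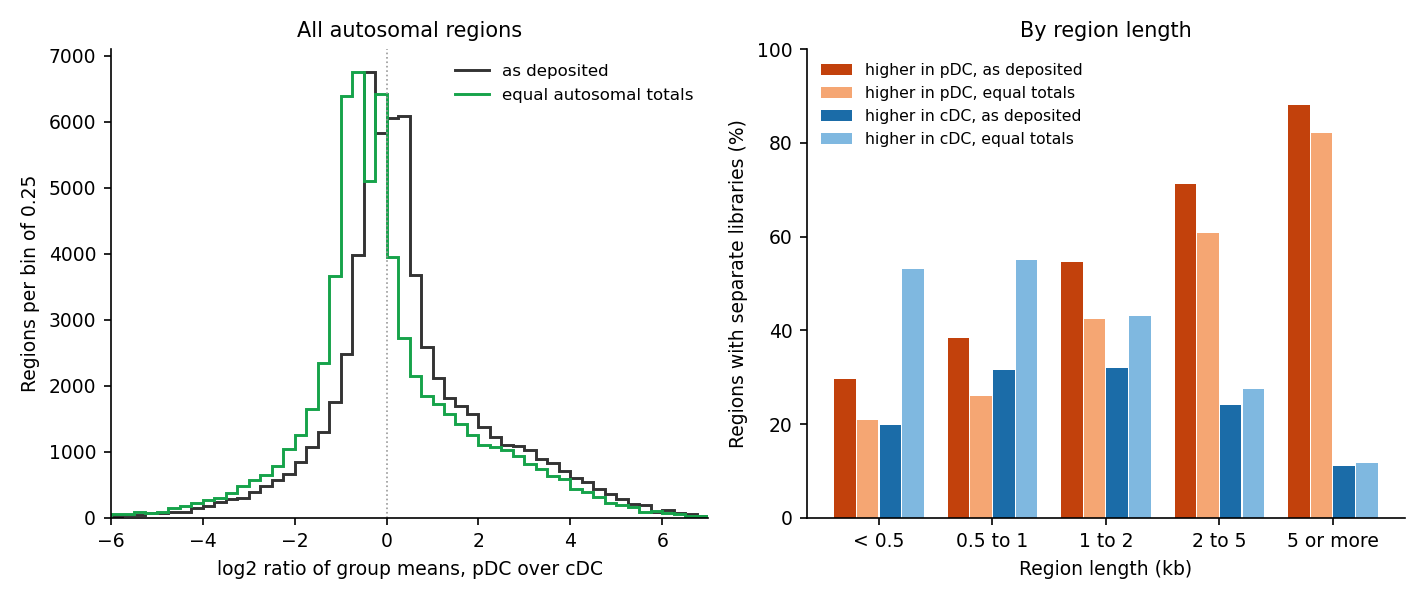
Left, number of autosomal regions by log2 ratio of group means (pDC over cDC) as deposited and with equal autosomal totals; the median moves from 0.20 to -0.26 while the right tail stays longer than the left. Right, percent of regions in each length class with separate libraries; at 5 kb or more, 88.1% were higher in pDC as deposited and 82.2% with equal totals.

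Genes were followed through the listed regions that overlap the gene or the 5 kb on either side of it. An mm9 annotation was not used here, so loci were placed by hand and checked against a RefSeq table. A gene was kept where the spacing of either end to another placed gene of its chromosome matched within 5 kb. It was also kept where its placed span, seen from a nearby placed gene, lay within its RefSeq span, give or take 5 kb. This left 120 of 150 listed genes. Of these, 111 had at least 1 region. A region in such a window may act on a neighbouring gene, and acetylation is not expression. For each locus the signals of its regions were summed in each library, and a locus was called separate by the same rule as a region. The list is named as one of differential peaks, so acetylation outside the listed regions is missing from these sums. A gene without a region may still carry the mark. The genes shown are those with the largest summed signal in each list, plus 15 genes chosen after their values were seen, which are Spib, Batf3, Zbtb46, Irf4, Ly6d, Xcr1, Clec9a, Cd8a, Sirpa, Ccr9, Tlr9, Irf7, Cd83, Ccl17 and Cd40, some of which both choices name.

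Promoter sequence is shown for 5 of the described genes, chosen from those with a promoter in the table. The first 3 genes carry pDC surface proteins and were 2.77-fold to 11.1-fold higher in pDC, and the last 2 encode MHC class II chains and were 4.06-fold and 8.12-fold higher in cDC. The 5 were picked after their values were seen. Each is the 250 bases before the transcription start in RefSeq's GRCm38.p6, read 5′ to 3′ on the gene's strand, a different build from the regions, so the 2 were not laid over each other. Capitals mark matches on either strand to the E-box CAGGTG, the RUNX motif TGTGGT, the interferon-type motif GAAANNGAAA and the Y-box core GATTGG.
Siglech (chr7:55767934-55768183, plus strand): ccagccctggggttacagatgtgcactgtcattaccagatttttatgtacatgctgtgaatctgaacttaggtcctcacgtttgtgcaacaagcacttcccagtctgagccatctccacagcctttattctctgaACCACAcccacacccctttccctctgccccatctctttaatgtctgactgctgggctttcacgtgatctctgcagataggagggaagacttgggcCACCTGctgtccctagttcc
Bst2 (chr8:71537473-71537722, minus strand): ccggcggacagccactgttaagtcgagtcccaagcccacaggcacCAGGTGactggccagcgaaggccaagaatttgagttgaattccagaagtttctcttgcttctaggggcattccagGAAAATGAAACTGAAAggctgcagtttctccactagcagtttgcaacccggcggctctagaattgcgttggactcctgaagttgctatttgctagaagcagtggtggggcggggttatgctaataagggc
Ccr9 (chr9:123766961-123767210, plus strand): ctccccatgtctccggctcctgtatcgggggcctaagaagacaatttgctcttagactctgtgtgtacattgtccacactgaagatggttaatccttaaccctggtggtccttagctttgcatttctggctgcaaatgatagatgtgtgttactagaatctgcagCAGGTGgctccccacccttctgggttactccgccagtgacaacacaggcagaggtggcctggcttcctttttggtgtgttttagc
H2-Aa (chr17:34287824-34288073, minus strand): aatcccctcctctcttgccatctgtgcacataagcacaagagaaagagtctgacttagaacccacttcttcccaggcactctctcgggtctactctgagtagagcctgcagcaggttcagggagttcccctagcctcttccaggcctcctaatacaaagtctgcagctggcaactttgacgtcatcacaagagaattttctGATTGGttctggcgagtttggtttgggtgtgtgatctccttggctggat
H2-Eb1 (chr17:34305617-34305866, plus strand): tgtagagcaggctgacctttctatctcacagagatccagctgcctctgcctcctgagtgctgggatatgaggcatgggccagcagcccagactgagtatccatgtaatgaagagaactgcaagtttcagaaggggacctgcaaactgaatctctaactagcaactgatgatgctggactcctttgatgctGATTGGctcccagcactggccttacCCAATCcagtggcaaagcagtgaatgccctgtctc
Siglech holds an E-box and a RUNX match, Bst2 an E-box and 2 overlapping interferon-type matches, and Ccr9 an E-box. H2-Aa holds 1 Y-box core and H2-Eb1 holds 2, 1 on each strand. E-boxes were present in 4 of 15 promoters (26.7%) of the pDC-side surface genes, from 10 genes, and in 17.2% of all 32851 promoters of the table. The pDC-side regulators had them in 2 of 17 promoters (11.8%), under the share of all promoters. They were in 0 of 9 promoters of the cDC-side surface genes and 1 of 11 of the cDC-side regulators. The presentation list had 1 of 7 and the migration and costimulation list 1 of 5. The Y-box core, searched after these sequences had been seen, was present in 4 of 7 promoters (57.1%) of the class II presentation list and in 14.6% of all promoters. RUNX matches were in 14% and interferon-type matches in 2.98% of all promoters. ETS and IRF composites (GGAANNGAAA), with none in the 15 pDC-side surface promoters, were in 2.3% of all promoters, and PU.1 and SPI-B type matches (GAGGAAG) in 10.6%. Of the 111 genes with a region, 80 had a promoter in the table. A match is a string of letters and says nothing about binding.

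In their listed regions, regulators known from pDC mostly carried more acetylation in pDC. Of 11 such genes with a region, 8 had separate summed signals higher in pDC, 1 was lower and 2 overlapped, with a median log2 ratio of 1.09, or 0.64 with equal totals. The equal-totals count was 8 higher and 2 lower. Over single regions, 42.0% of all regions were separate and higher in pDC, and 123 of the 190 regions of these loci (64.7%) were.

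Tcf4, the E-protein named above, had a summed signal of 17305 and 28060 in the cDC libraries and 68004 and 63755 in the pDC libraries over 36 regions. Both pDC libraries were more than either cDC library, and the difference was 2.90-fold. Its strongest region, chr18:69503501-69512800, held 5536 and 9543 in cDC against 33988 and 29903 in pDC, which was 4.24-fold higher in pDC (limma log2 2.13 ± 0.32, SE; adjusted p = 0.00104). The difference was not the same along the locus, since 24 of its regions were separate and higher in pDC and 5 higher in cDC.

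Irf8, an interferon regulatory factor needed at several steps of dendritic cell development, reached 15871 and 17320 in cDC and 54982 and 49709 in pDC. A single region of 27.4 kb at chr8:123258751-123286150 held nearly all of it and was 3.14-fold higher in pDC (limma adjusted p = 0.00146). The longest pDC region of the list, given above, begins just beyond this one and held 12371 and 16085 in cDC against 67865 and 70070 in pDC.

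Runx2, a RUNX factor used for the exit of pDC from bone marrow, had 16611 and 20843 in cDC and 47932 and 45626 in pDC, a 2.50-fold difference. Its strongest region, chr17:44863451-44876450, was 13 kb long and 3.90-fold higher in pDC (7158 and 8782 against 32935 and 29259; limma adjusted p = 0.000681), while 10 of its 46 regions were separate and higher in cDC. Spib, an ETS factor of pDC, had 4087 and 5198 in cDC and 15168 and 15096 in pDC, 3.26-fold higher, and 2.15-fold with 25 kb on each side. Its 9.05 kb region at chr7:51783801-51792850 was 4.21-fold higher in pDC, and the adjoining 0.65 kb region was separate in the other direction, at 1119 and 1354 in cDC against 884 and 723 in pDC, without passing limma (adjusted p = 0.161).

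Bcl11a, a zinc finger factor of lymphoid cells and pDC, differed less. Its summed signal was 18544 and 20832 in cDC and 32614 and 33112 in pDC, 1.67-fold, and its strongest region at chr11:23978201-23981250 was 1.60-fold higher in pDC, short of the threshold in limma (adjusted p = 0.0721). Zeb2, a repressor needed for pDC development, was 2.65-fold higher in pDC (5368 and 9162 against 19735 and 18787), and all 4 of its regions were separate in that direction. Ikzf1, the gene of Ikaros, was 2.12-fold higher in pDC (18023 and 28178 against 49367 and 48630).

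Irf7, the factor that drives type I interferon transcription, did not separate the cell types. Its summed signal was 2811 and 9627 in cDC and 8798 and 8219 in pDC. The second cDC library was the highest of the 4 and the first the lowest. Without the second-listed cDC library the ratio was 3.03-fold higher in pDC, and without the first it was 1.13-fold lower.

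Id3, another helix-loop-helix inhibitor, was listed among the pDC-side regulators and was the 1 member of the list with separate signals higher in cDC. It had 11152 and 10760 in cDC and 3129 and 4106 in pDC, 3.03-fold higher in cDC, and its region at chr4:135698401-135703950 passed limma (log2 -1.58 ± 0.28, SE; adjusted p = 0.00257). Mtf2, a Polycomb-associated protein, overlapped between the cell types (1881 and 2706 against 2718 and 2699).

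Regulators known from cDC were divided. Of 11 with a region, 4 were higher in cDC, 2 higher in pDC and 5 overlapped as deposited, with a median log2 ratio of -0.13. With equal totals 9 were higher in cDC and 1 in pDC. Of their 76 regions, 31.6% were separate and higher in cDC and 35.5% in pDC, against 26.0% and 42.0% of all regions. Id2, the inhibitor named above, showed the difference most plainly, with 24972 and 26281 in cDC and 5427 and 6409 in pDC, or 4.33-fold, and 2.77-fold with the gene body alone. Its region at chr12:25781251-25786600 held 15873 and 16860 in cDC against 1935 and 2785 in pDC, which was 6.93-fold higher in cDC (limma log2 -2.82 ± 0.29, SE; adjusted p = 0.000202).

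Batf3, needed for the cross-presenting type of cDC, was 3.38-fold higher in cDC in sum, over 2 regions that both passed limma in that direction. Its main region at chr1:192921451-192925050 was 4.51-fold higher in cDC (2208 and 2535 against 540 and 509), and the other, chr1:192934001-192936100, 2.39-fold (1178 and 1726 against 662 and 553). Zbtb46, a zinc finger factor that marks committed cDC, was 1.78-fold higher in cDC (7913 and 9208 against 4520 and 5096). Within it, chr2:181169801-181173250 was 2.78-fold higher in cDC (limma adjusted p = 0.00372) and chr2:181145051-181146400 was 4.25-fold higher in pDC (291 and 282 against 1303 and 1139; limma adjusted p = 0.00126). Bcl6, a repressor used by cDC, was also separate, at 6694 and 11433 in cDC and 6208 and 6336 in pDC, or 1.45-fold.

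Irf4, which is used by the CD11b-positive type of cDC, went the other way. Its summed signal was 801 and 1711 in cDC and 4106 and 6395 in pDC, 4.18-fold higher in pDC, and 6.55-fold without the second-listed cDC library. The region at chr13:30851651-30854200 carried most of it, with 104 and 257 in cDC and 2957 and 4051 in pDC, which was 19.3-fold higher in pDC (limma adjusted p = 0.0002). The other cDC-side regulator higher in pDC was Notch2, a receptor for Notch ligands, by 1.43-fold as deposited, and with equal totals its libraries overlapped.

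Of 7 regulators used by both cell types, 5 were higher in pDC and 1 in cDC as deposited, and 4 and 3 with equal totals. Stat5a, counted as higher in pDC (1.67-fold), was 1.28-fold higher in cDC with the gene body alone. Of their 78 regions, 50% were separate and higher in pDC and 20.5% in cDC, against 42.0% and 26.0% of all regions. Runx3 was 2.69-fold higher in pDC (10229 and 13304 against 29562 and 33649). Its region at chr4:134684051-134688850 was 7.85-fold higher (1244 and 1633 in cDC, 9978 and 12608 in pDC; limma adjusted p = 0.000173). Stat3, a transducer of Flt3 ligand and IL-10 signals, was 2.16-fold higher in pDC (7497 and 12645 against 21562 and 21897). Gfi1, a zinc finger repressor, had the largest ratio of the list, at 168 and 319 in cDC and 2280 and 2637 in pDC, 10.1-fold, which fell to 6.41-fold with 25 kb on each side and 2.59-fold with the gene body alone. Runx1 was 1.25-fold higher in pDC as deposited and turned to a log2 ratio of -0.14 with equal totals. Irf5, an interferon regulatory factor downstream of Toll-like receptors, was higher in cDC by 1.21-fold (15270 and 20457 against 14788 and 14725), and Spi1, the gene of PU.1, overlapped (11651 and 17511 against 12403 and 11206).

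Surface genes of pDC all lay higher in pDC. Each of the 13 placed genes on that list was separate in that direction as deposited and with equal totals, with a median log2 ratio of 2.54 (2.07 with equal totals) and a range of 1.02 to 4.43. The list includes Pacsin1, an adaptor and not a surface receptor, which gives the upper end of this range. At the level of regions, 51 of 65 (78.5%) were separate and higher in pDC against the 42.0% of all regions. The genes were listed because they are known from pDC, and the list was chosen with earlier results of these data known.

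Siglech, a sialic acid-binding lectin that marks mouse pDC, was covered by 1 region of 24.6 kb at chr7:63018151-63042700. It held 3426 and 4870 in cDC and 44383 and 48037 in pDC, an 11.1-fold difference (limma log2 3.50 ± 0.28, SE; adjusted p = 0.000138). Bst2, the antigen of the pDC antibody PDCA-1 and a tether of budding virus, had 4999 and 10741 in cDC and 21621 and 21938 in pDC, 2.77-fold higher in pDC and 4.36-fold without the second-listed cDC library. Its strongest region at chr8:74058101-74062950 was 2.31-fold higher (limma adjusted p = 0.0264).

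Ccr9, the gut-homing chemokine receptor, had 2054 and 2841 in cDC and 12246 and 16175 in pDC, 5.80-fold higher in pDC. Ptprs, a receptor phosphatase of pDC, was 4.13-fold higher (6354 and 9923 against 30545 and 36673), led by chr17:56581051-56587300 at 9.0-fold (1146 and 2543 against 15410 and 17794; limma adjusted p = 0.000315). Ptprc, the gene of CD45 and of the B220 form that pDC carry, was 2.36-fold higher (16710 and 24838 against 44520 and 53658), although its strongest region missed the threshold in limma (1.56-fold; adjusted p = 0.112). A region further along, chr1:140047601-140056550, passed at 5.32-fold (1753 and 3063 against 11507 and 14118; limma adjusted p = 0.000588).

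Lair1, an inhibitory collagen receptor, had 2614 and 5384 in cDC and 31604 and 33701 in pDC, 8.16-fold higher in pDC. Pacsin1, a membrane-bending adaptor of neurons and pDC, had 351 and 863 in cDC and 13589 and 12590 in pDC, which was 21.5-fold higher, with all 6 of its regions separate, and 7.22-fold with 25 kb on each side. Its region at chr17:27791701-27795200 was 27.2-fold higher (265 and 557 against 11752 and 10666; limma adjusted p = 0.000134). Ly6d, a surface protein of early B cells and pDC precursors, had 278 and 744 in cDC and 5474 and 6570 in pDC, 11.8-fold higher, and 18.5-fold with the gene body alone. Without the second-listed cDC library these 3 ratios were 12.5, 37.2 and 21.6, because the first cDC library was the lower one at each. Ly6c2 and Klra17, which belong to families of near-identical genes whose reads may be shared, were 2.02-fold and 3.92-fold higher in pDC, and Ly6c2 was 3.48-fold higher without the second-listed cDC library and 3.78-fold with 25 kb on each side.

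**Figure D2:**
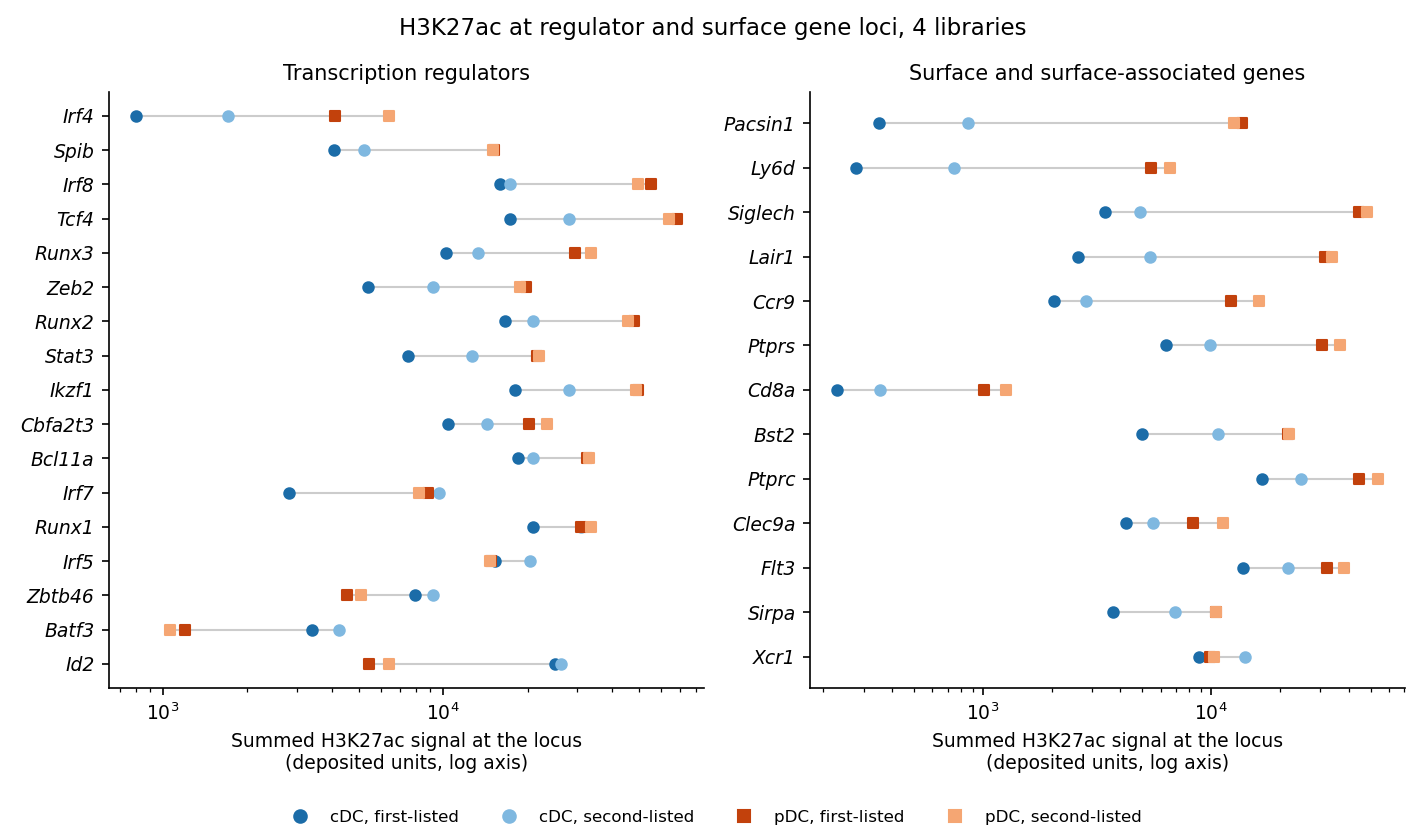
Summed H3K27ac signal (deposited units, log axis) at loci of regulators (left) and surface genes (right), ordered by ratio; circles are the 2 cDC libraries and squares the 2 pDC libraries. The pDC squares lie right of the cDC circles from Irf4 down to Bcl11a and from Pacsin1 down to Sirpa, and left of them at Zbtb46, Batf3 and Id2.

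Surface genes of cDC were divided. Of 14 with a region, 3 were separate and higher in cDC, 5 higher in pDC and 6 overlapped, and with equal totals 7 were higher in cDC and 5 in pDC. Of their 88 regions, 40.9% were separate and higher in cDC and 33.0% in pDC, against 26.0% and 42.0% of all regions. The 3 were Dpp4, a peptidase of CD8-type cDC (2.60-fold; 4951 and 7348 against 2186 and 2541), Ly75, the endocytic receptor DEC-205 (4.43-fold; 1075 and 3876 against 593 and 523) and Cx3cr1, the fractalkine receptor (1.34-fold; 2642 and 3539 against 2030 and 2592). Ly75 was 1.93-fold higher in cDC without the second-listed cDC library and 6.94-fold without the first.

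Several of these loci held regions of both directions. Xcr1, the chemokine receptor of cross-presenting cDC, had overlapping sums (8854 and 14099 against 9892 and 10335). Its region at chr9:123767601-123771700 was 5.95-fold higher in cDC (2103 and 4078 against 352 and 686; limma adjusted p = 0.00174), while chr9:123758751-123761250 was 1.87-fold higher in pDC (limma adjusted p = 0.0285). Clec9a, a receptor for dead cells found on cross-presenting cDC and, at a lower level, on pDC, was 2.00-fold higher in pDC (4244 and 5534 against 8282 and 11299). Its region at chr6:129374251-129376350 held 17 and 120 in cDC and 1180 and 1951 in pDC.

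Sirpa, a receptor for CD47 on the CD11b-positive cDC, was 1.97-fold higher in pDC (3714 and 6920 against 10459 and 10518), and 3.34-fold with 25 kb on each side. Within it chr2:129435651-129437600 was 21.3-fold higher in pDC (68 and 156 against 2392 and 2418; limma adjusted p = 0.000167), and chr2:129458351-129460050 was 2.08-fold higher in cDC (limma adjusted p = 0.0403). Cd8a, the alpha chain shown by CD8-type cDC and some pDC, had 1 region of low signal, at 230 and 353 in cDC and 1007 and 1258 in pDC. For Cd8a no value was obtained with the gene body alone. Itgax, the gene of CD11c, which cDC carry at a high and pDC at a lower level, overlapped (5552 and 7778 against 6820 and 7652). Itgam, the gene of CD11b, was 1.46-fold higher in pDC in sum (4055 and 5727 against 6554 and 7765) with 4 regions separate for pDC and 7 for cDC. The strongest, chr7:135223301-135225950, held 32 and 131 in cDC and 3013 and 3482 in pDC. Clec10a, a galactose-binding lectin, was 6.14-fold higher in pDC (178 and 248 against 1347 and 1281).

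Among growth factor receptors, Flt3, whose ligand drives the growth of both cell types, was 1.98-fold higher in pDC (13803 and 21690 against 32189 and 38038). Its region at chr5:148150401-148154900 was 4.11-fold higher (2126 and 3982 against 11725 and 13402; limma adjusted p = 0.00144). Csf2rb, the shared beta chain of the GM-CSF and IL-3 receptors, was 2.98-fold higher in pDC, or 5.93-fold with the gene body alone. Csf1r, the M-CSF receptor, was 1.70-fold higher in cDC (2220 and 3605 against 1692 and 1739), and with 25 kb on each side its libraries overlapped, at 1.04-fold.

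The structural genes of MHC class II were lower in pDC. Of 10 genes of the presentation list with a region, 5 were higher in cDC, 2 higher in pDC and 3 overlapped, and with equal totals 8 were higher in cDC. Of their 51 regions, 47.1% were separate and higher in cDC and 15.7% in pDC, against 26.0% and 42.0% of all regions. H2-Ab1, a beta chain, had 29870 and 41971 in cDC and 3506 and 7648 in pDC, 6.44-fold higher in cDC and 10.2-fold without the second-listed pDC library. H2-Eb1 was 8.12-fold higher in cDC (18424 and 29923 against 2124 and 3828), or 4.69-fold with 25 kb on each side, and H2-Aa, an alpha chain, 4.06-fold (38886 and 56684 against 8610 and 14929). These 3 neighbours held 12 regions, all separate and higher in cDC, of which 10 passed limma. Cd74, the invariant chain that guards the peptide groove, was 2.36-fold higher in cDC (21858 and 29583 against 9507 and 12323).

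The others of the list were not alike. Psmb8, an immunoproteasome subunit, was 1.29-fold higher in cDC, and Tap1, a peptide transporter of the class I pathway that shares 4 regions with the Psmb8 window, overlapped as deposited (10014 and 15198 against 10195 and 10412). H2-Oa, a chain of H2-O, which restrains peptide loading, was 2.05-fold higher in pDC, and Ctsl, a lysosomal protease, 3.38-fold (1153 and 1707 against 4478 and 5188). With the gene body alone as the window, neither counted as higher in pDC.

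Ciita, the transactivator of MHC class II genes, is transcribed from alternative promoters that different cell types use. Its summed signal overlapped, at 8936 and 10947 in cDC and 7400 and 10563 in pDC, but its regions did not behave alike. The region at chr16:10479351-10484250 held 4350 and 4188 in cDC and 326 and 295 in pDC, which was 13.7-fold higher in cDC (limma log2 -3.78 ± 0.29, SE; adjusted p = 0.000134). The next strong regions in the direction of increasing position, chr16:10487001-10488850 and chr16:10495051-10497050, were higher in pDC by 1.92-fold (1293 and 1583 against 2254 and 3268; limma adjusted p = 0.0442) and 2.43-fold (867 and 1325 against 2170 and 3154; limma adjusted p = 0.0158). With equal totals the middle region no longer passed limma and stayed separate. Which promoter each region belongs to was not determined here.

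Cbfa2t3, the gene of the corepressor ETO2, had the same kind of layout. Of its 18 regions, 7 were separate and higher in pDC and 8 in cDC, and the sum was 1.77-fold higher in pDC (10384 and 14270 against 20246 and 23433). The 6.3 kb region at chr8:125221201-125227500 was 2.74-fold higher in pDC (4056 and 4890 against 11760 and 12714; limma adjusted p = 0.00283), while chr8:125214951-125217700 in the same locus was 4.09-fold higher in cDC (1054 and 1859 against 318 and 392; limma adjusted p = 0.0032).

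**Figure D3:**
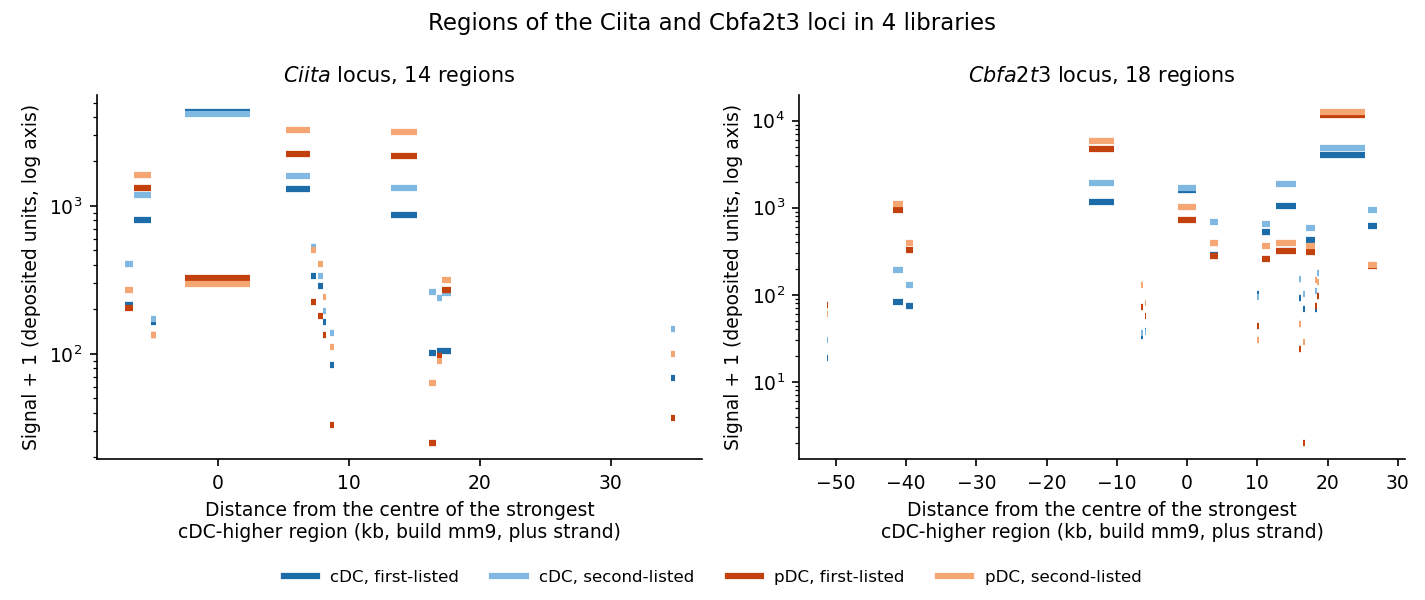
Signal plus 1 (deposited units, log axis) of each listed region of the Ciita and Cbfa2t3 loci in the 4 libraries, drawn as bars as long as the region against distance from the strongest cDC-higher region. At Ciita the cDC bars of the central region lie 13.7-fold above the pDC bars and the order turns at the next 2 strong regions; at Cbfa2t3, 7 regions are separate for pDC and 8 for cDC.

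Genes of migration and costimulation were lower in pDC. Of 11 with a region, 8 were separate and higher in cDC and none in pDC, with a median log2 ratio of -1.36 (-1.80 with equal totals), and 22 of 44 regions (50%) were separate and higher in cDC against 26.0% of all regions. Cd83, a marker of mature cDC, had 5243 and 12778 in cDC and 890 and 1405 in pDC, 7.85-fold higher in cDC (limma adjusted p = 0.00103 for its 1 region at chr13:43879951-43887100) and 4.57-fold without the second-listed cDC library. With 25 kb on each side the sum was 4.15-fold higher in cDC.

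The B7 costimulators followed. Cd86 was 3.05-fold higher in cDC (5468 and 6904 against 2134 and 1922) and Cd80 2.57-fold (4272 and 7029 against 2239 and 2151), or 7.58-fold with the gene body alone. At Cd86 the strongest region differed by 1.51-fold and did not pass limma (adjusted p = 0.178), whereas chr16:36631551-36633100 held 981 and 1101 in cDC and 58 and 51 in pDC. Ccl17, a chemokine for CCR4-bearing T cells, had 836 and 939 in cDC and 45 and 105 in pDC, 11.7-fold higher in cDC and 19.3-fold without the second-listed pDC library. For Ccl17 no value was obtained with the gene body alone. Il12b, the p40 chain of IL-12, was 9.89-fold higher in cDC (443 and 495 against 49 and 44), and with 25 kb on each side its libraries overlapped, at 1.08-fold.

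Cd40, the receptor through which T cells license dendritic cells, was 5.52-fold higher in cDC (644 and 2068 against 221 and 269), 2.62-fold without the second-listed cDC library and 8.41-fold without the first. With 25 kb on each side its libraries overlapped, at 1.19-fold. Icam1, an adhesion molecule, was higher in cDC by 1.33-fold (6201 and 7585 against 4830 and 5501). Ccr7, the receptor that guides mature cDC to lymph nodes, overlapped, with the cDC libraries far apart, at 393 and 3450 against 2035 and 1916 in pDC. It was 5.02-fold higher in pDC without the second-listed cDC library and 1.75-fold higher in cDC without the first. Il15, a cytokine for NK and memory T cells (1059 and 3418 against 1532 and 1834), and Pdcd1lg2, a ligand of PD-1 (1775 and 3707 against 2959 and 4053), also overlapped. Their log2 ratios moved from -0.41 and 0.36 to 0.67 and 0.98 without the second-listed cDC library, and that of Il15 to -1.02 without the first and to 0.23 with the gene body alone.

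Genes of sensing and interferon were divided. Of 14 with a region, 6 were higher in pDC, 2 higher in cDC and 6 overlapped, and with equal totals 6 and 5. Of their 80 regions, 42.5% were separate and higher in pDC, a share near the 42.0% of all regions. Ifnar2 and Ifnar1, the chains of the type I interferon receptor, were 2.69-fold and 2.71-fold higher in pDC (8485 and 12773 against 27492 and 29727 for Ifnar2, and 2755 and 4352 against 8717 and 10540 for Ifnar1). All 8 regions of Ifnar2 were separate in that direction, and 3 of them also lie in the window of its neighbour Il10rb, which was 2.99-fold higher in pDC. Il10ra, the other chain of the IL-10 receptor, was 1.71-fold higher in pDC (10502 and 15444 against 19298 and 25012).

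Tlr9, the endosomal receptor for unmethylated DNA, was 2.01-fold higher in pDC (4296 and 7740 against 12696 and 11511) and 1.26-fold with 25 kb on each side, and its region at chr9:106121551-106126850 was 2.23-fold higher (limma adjusted p = 0.0182). Unc93b1, the chaperone that brings such receptors to endosomes, was 2.24-fold higher in pDC (4962 and 7677 against 15060 and 13301). Ifngr2, a chain of the interferon-gamma receptor, was 1.64-fold higher in cDC (7762 and 11141 against 5317 and 6185), and Tlr2, a receptor for bacterial lipoproteins, 1.45-fold. Neither counted as higher in cDC with 25 kb on each side. Stat2, Ifih1, Il12rb1 and Myd88 were among those that overlapped, as did Irf7 above.

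**Figure D4:**
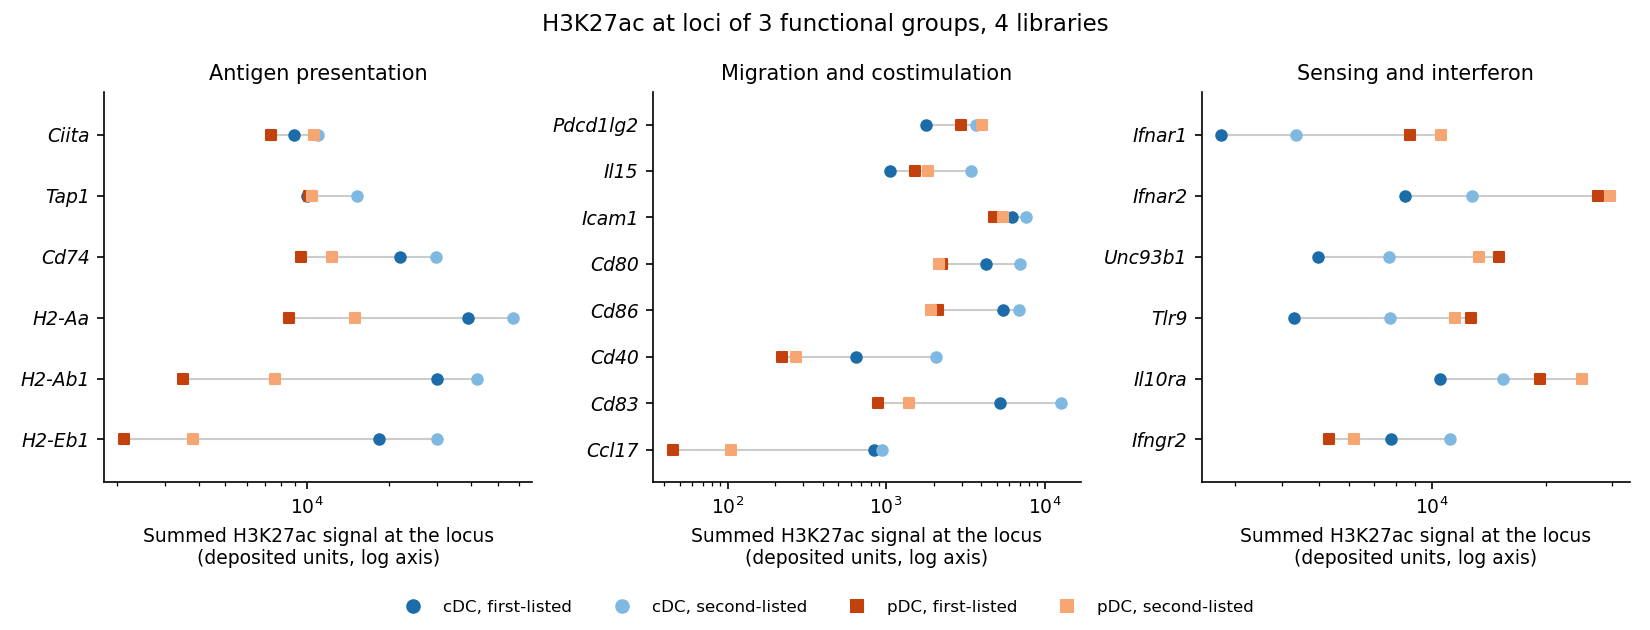
Summed H3K27ac signal (deposited units, log axis) at loci of presentation, migration and costimulation, and sensing genes in the 2 cDC libraries (circles) and 2 pDC libraries (squares). The pDC squares lie left of the cDC circles from Cd74 to H2-Eb1 and from Icam1 to Ccl17, and right of them at the first 5 sensing genes.

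The 2 cDC libraries differed more at some loci than their totals do. Of the 111 loci, the 8 with the largest ratio of the second cDC library to the first were Ccr7 at 8.78, Fcgr1, a macrophage Fc receptor, at 5.47, Ly75 at 3.61, Irf7 at 3.42, Stat2 at 3.32, Il15 at 3.23, Cd40 at 3.21 and Ifih1, a cytosolic RNA sensor, at 2.76, against 1.41 for the total signal. The same ratio of the pDC libraries was 0.79 to 1.22 at these loci. These genes were picked for their difference, so no test is given, and its part in the results of these loci was not tested beyond leaving out each library.

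The labels were checked against markers of each cell type. Of 10 pDC markers, 9 were separate and higher in pDC and Irf7 overlapped, under both scalings. Of 12 cDC markers, 7 were higher in cDC, Clec9a was higher in pDC, and Itgax, Xcr1, Ciita and Ccr7 overlapped, and with equal totals 10 were higher in cDC. Of all single regions, 42.0% were separate and higher in pDC and 26.0% in cDC, and with equal totals 31.3% and 48.6%. Both sets of markers were chosen with earlier results of these data known, so the check is not independent. The markers are a selection, since the full cDC-side lists of regulators and surface genes hold 4 and 3 genes higher in cDC and 2 and 5 higher in pDC, among them Irf4, Sirpa, Cd8a and Itgam. Summed over their loci, the pDC markers held 74411 and 111496 in cDC and 268936 and 270039 in pDC, and the cDC markers 160107 and 222574 in cDC and 68091 and 90637 in pDC. Such sums are led by the loci of largest signal. For the cDC markers these were H2-Aa, H2-Ab1, Cd74 and Id2, with cDC means of 47785, 35920, 25720 and 25626.

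Loci of other blood cells were not silent. B-cell genes with a region were higher in pDC at 4 of 6, with 14 of their 18 regions (77.8%) separate in that direction against 42.0% of all regions. Among them were Pax5, the master factor of B cells, at 446 and 1133 in cDC and 8871 and 8305 in pDC (10.9-fold; 19.2-fold without the second-listed cDC library) and Blnk, an adaptor of the B-cell receptor, at 1578 and 3370 against 16773 and 18663 (7.16-fold; 11.2-fold without it). Ebf1, which acts with Pax5, was 8.86-fold higher in pDC, Cd79a was 1.35-fold higher in cDC, and Cd79b overlapped. A pDC is known to share part of the B-cell program, and a contribution of B cells to the pDC libraries was not tested.

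Of the granulocyte genes, Mpo, S100a8 and Camp had no listed region, which does not show that the mark was absent. The window of Elane, the gene of neutrophil elastase, held a 6.2 kb region at chr10:79355601-79361800 with 297 and 880 in cDC and 14428 and 17087 in pDC. The Elane window summed to 23.4-fold higher in pDC, 41.4-fold without the second-listed cDC library and 3.89-fold with 25 kb on each side. Nearly all of its pDC sum of 14587 and 17272 lay in that 1 region, which may belong to a neighbouring gene. Among macrophage genes, Lyz2, the gene of lysozyme, was 24.5-fold higher in cDC (929 and 855 against 45 and 26), or 14.7-fold with 25 kb on each side, and Cd14 was 3.92-fold higher in pDC, with 1.77-fold at 25 kb and 11.1-fold with the gene body alone. Of progenitor genes, Kit (3.49-fold) and Cd34 (6.18-fold) were higher in cDC, and Myb (3.31-fold), Hoxa9 (3.59-fold, or 9.29-fold with the gene body alone) and Meis1 (1.84-fold) higher in pDC. With 25 kb on each side the libraries of Cd34 overlapped, at 1.26-fold higher in pDC. Cd3e, a T-cell gene, overlapped. The part of other cells in these values was not tested.

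**Figure D5:**
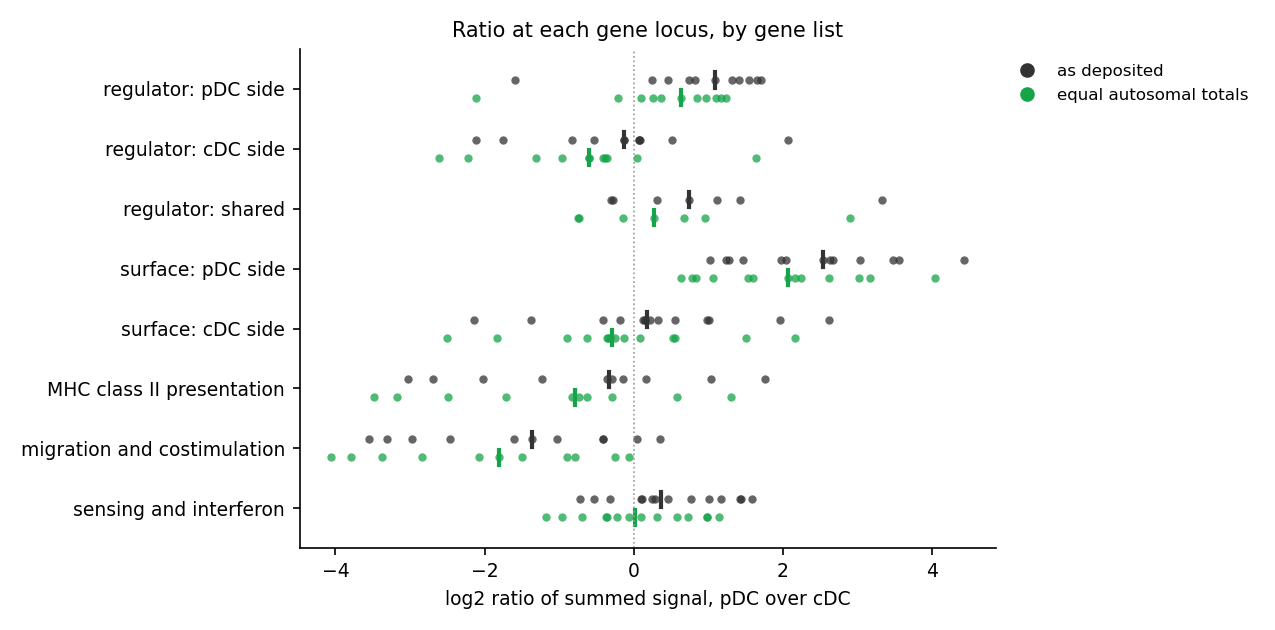
Log2 ratio of summed signal (pDC over cDC) at each placed gene, by gene list, as deposited (grey) and with equal autosomal totals (green), with vertical ticks at the median of each list. The pDC-side surface genes all lie right of 0 under both scalings (medians 2.54 and 2.07), and migration and costimulation has the lowest medians (-1.36 and -1.80).

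Separate autosomal regions of at least 500 bp were also ranked by ratio and by difference, whether or not they lay at a placed gene. Only those with a higher-group mean not under the median of their direction were ranked. Ranks below are among these regions, and regions outside them reached larger ratios in both directions. The largest ratio for pDC was at chr16:30433451-30435650, with 2 and 10 in cDC and 1687 and 1561 in pDC (limma log2 8.14 ± 0.68, SE; adjusted p = 0.000138). It was followed by chr2:174762551-174764600 (10 and 8 against 1560 and 2873) and chr8:49380501-49382100 (0 and 9 against 913 and 1432). For cDC the largest was at chr2:11980701-11982450, with 1127 and 877 in cDC and 8 and 0 in pDC (limma log2 -8.37 ± 0.97, SE; adjusted p = 0.000337), followed by chr3:108998501-109000000 (643 and 1235 against 6 and 10). The 8 regions of largest ratio in each direction were 1350 to 2300 bp long.

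By difference of means the pDC regions were long. The largest, chr15:85997151-86017400, spanned 20250 bp and held 12106 and 15134 in cDC and 77818 and 84270 in pDC, 5.95-fold higher in pDC (limma adjusted p = 0.000234). The third, chr10:59738701-59754500, held 8317 and 13165 in cDC and 52948 and 55043 in pDC. For cDC the 5 largest differences lay at H2-Aa, H2-Ab1, H2-Eb1, Cd74 and Id2. The eighth, chr8:86724901-86729150, was separate (19825 and 32113 against 10092 and 18658) and did not pass limma (adjusted p = 0.0998).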

How the data were processed

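H3K27ac chromatin immunoprecipitation and sequencing was done in sorted cells, per the labels' protocols, which name another supplier of the antibody than the sample attributes do. Reads were aligned with BWA 0.6.1 to mm9, per the submitters' processing notes, and the series title names THOR, which calls differential peaks with replicates. The authors' deposited signals are another unit than counts: whole numbers scaled per library, with unknown depth and no replicate number, so libraries are named by their place in the list. Which signals belong to which cell type was read from the list's name and checked on regions with identical bounds in 2 other lists (826 with CDP and cDC, 6743 with CDP and pDC). There the same library differed by an SD of 0.045 to 0.079 on the log2 scale, and any other pair by at least 0.73.

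The authors' direction and p-values were not used, and neither were the fourth list, the 4 input and 4 RNA samples, or the 1537 regions on sex chromosomes. Ratios are log2 of group means after adding 1. limma 3.58.1 in R 4.3.3, with an intensity trend, tested log2(signal + 1) in the 4 libraries without covariates, two-sided. In a check on simulated data it at first recovered none of the changes made, and recovered changes only after the simulated spread between libraries had been lowered. No count model was used. With 2 libraries per group, the smallest two-sided p of an exact permutation test is 0.333.

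The members and gene lists were chosen with earlier results of these data known. Values are given for the 12 regulators, the 12 surface genes and the 6 genes of each other list with the largest summed signal in the higher group, and other genes named were chosen after their values were seen. Some genes of the lists are counted but not reported here by name. At a locus the region with the largest higher-group mean is described, with others chosen after their values were seen. Regions named by rank are, in each direction, of at least 500 bp, separate and with the mean of the higher group not under its median, the 8 with the largest ratio and the 8 with the largest difference, of which some are given. Loci were placed on mm9 from memory. Of 135 listed genes placed, 15 passed neither check against RefSeq's GRCm38.p6 table and were left out, and 44 further genes served for spacing only. The checks and their tolerance were set after the files had been examined. Alternatives were equal totals, equal medians, each library left out, pseudocounts of 0.5 and 5, filters on signal and length, a limma fit with no trend, an adjusted p under 0.01, a ratio of at least 2, and other windows. Coordinates are 1-based. Python 3.11.15, pandas 2.3.3, numpy 2.4.6, scipy 1.17.1 and matplotlib 3.10.9 were used.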

Additional observations from a re-analysis of the deposited data

How the results depend on the processing

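The balance between the cell types turned with scaling: with equal totals 39.6% of regions were higher in pDC, with a median log2 ratio of -0.26. Leaving out each library in turn gave 49.2% to 67.3% and -0.018 to 0.46, and regions of at least 500 bp gave 59.7% and 0.36. limma called 9899 to 19898 regions higher in pDC and 3259 to 6770 higher in cDC with a library left out, 10085 and 3153 at an adjusted p under 0.01, and for cDC 18096 with equal totals and 16770 with equal medians. Separate regions higher in cDC numbered 31455 with equal totals, 17355 to 29178 with a library left out and 8381 at a ratio of at least 2. With a library left out the lone one is assumed to vary like the other group.

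Among gene lists, counts higher in cDC with equal totals were 14 regulators, 8 surface, 8 presentation and 5 sensing genes. With a library left out, counts higher in cDC ran from 6 to 12 (regulators), 5 to 8 (presentation) and 2 to 5 (sensing), and counts higher in pDC from 2 to 4 (presentation), 0 to 3 (migration) and 6 to 12 (sensing). With the gene body alone, 0 presentation genes were higher in pDC and 5 migration genes higher in cDC, and with 25 kb on each side 10 sensing genes were higher in pDC and 0 in cDC. Of 51 single loci followed, 7 changed the sign of their ratio: Runx1, separate as deposited, at -0.14 with equal totals, and 6 with overlapping libraries (Ciita, Il15, Irf7, Pdcd1lg2, Tap1 and Xcr1). Loci outside these 51 turned too. Stat5a, separate and higher in pDC as deposited (log2 ratio 0.74), was separate and higher in cDC with the gene body alone (-0.36). H2-Oa moved from 1.04 to -0.23 with the gene body alone. With 25 kb on each side, Csf1r moved from -0.76 to 0.06 and Cd34 from -2.63 to 0.33. These 3 were separate as deposited and overlapped after the change. The cause was not tested. No paired analysis was possible because the columns carry no replicate numbers. With 2 libraries per group and unknown depth, regions of low signal have poorly known ratios.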
